A study of Homo sapiens with 12 samples.

Results

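Clustered histone genes are the core and linker histone genes that lie together in a few stretches of the genome, formerly named HIST1H, HIST2H, HIST3H and HIST4H. Of the 54675 probe sets on the array, 51 were assigned by the array annotation to exactly 1 such gene, and they stood for 45 different genes. They covered 6 genes for the linker histone H1, 9 for H2A, 13 for H2B, 8 for H3 and 9 for H4. The large cluster on chromosome 6 gave 47 of the 51 probe sets, and the smaller HIST2 and HIST3 clusters on chromosome 1 gave 1 and 3. A former symbol put H3-4 (formerly HIST3H3) among the members, and 2 members, H2AC5P and H4C10P, are annotated as pseudogenes. A mean log2 intensity of at least 4 over the 12 arrays was reached by 10 probe sets for 9 genes, and 41 probe sets stayed below it.

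The RNA came from HK-2, an immortalised epithelial line made from human kidney proximal tubule, so every array holds the same single line. Cells at near confluence received Aa at a low dose or its vehicle and were collected after 24 h or 48 h, which gives 4 groups of 3 arrays: vehicle control and Aa, at each time. All groups were grown in the same hormone-supplemented medium, the samples are labelled as biological replicates 1 to 3, and neither the full name of Aa nor its numeric dose is given in the sources used here.

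Nucleosomes, the spools on which nuclear DNA is wound, consist of pairs of the histones H2A, H2B, H3 and H4, and H1 binds the DNA between them. The clustered genes are expressed mainly while a cell copies its DNA, and their messages normally end in a stem-loop bound by SLBP in place of a poly(A) tail. Many clustered genes of a core histone family encode nearly identical proteins and have similar coding sequences, so one array probe can bind the messages of several of them.

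Shown first are the upstream sequences of the genes with the largest called rises below and of H4C11, which did not rise. Members that moved together can be compared in them. The sequences are the 250 bases before the annotated start from RefSeq (build GRCh38.p14), 5′ to 3′ in the direction of the gene. An entry was found for 41 of the 45 genes. Capitals mark matches on either strand to the CCAAT box (CCAAT), the TATA box (TATANA), the octamer that the factor POU2F1 is known to bind (ATTTGCAT) and the H1 box (AAACACA). Overlapping matches of the same motif were each counted.
H1-2 (chr6:26056471-26056720, minus strand): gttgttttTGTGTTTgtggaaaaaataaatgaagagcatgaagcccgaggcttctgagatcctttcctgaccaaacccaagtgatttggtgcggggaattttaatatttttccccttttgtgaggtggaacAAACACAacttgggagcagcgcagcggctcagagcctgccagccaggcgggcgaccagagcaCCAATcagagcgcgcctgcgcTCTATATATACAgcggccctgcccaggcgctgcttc
H2BC5 (chr6:26157871-26158120, plus strand): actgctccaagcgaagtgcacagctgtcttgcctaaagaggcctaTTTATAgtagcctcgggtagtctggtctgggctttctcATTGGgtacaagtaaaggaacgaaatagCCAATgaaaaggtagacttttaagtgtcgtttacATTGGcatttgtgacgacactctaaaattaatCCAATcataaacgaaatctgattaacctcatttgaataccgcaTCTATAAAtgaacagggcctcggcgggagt
H2BC6 (chr6:26183511-26183760, plus strand): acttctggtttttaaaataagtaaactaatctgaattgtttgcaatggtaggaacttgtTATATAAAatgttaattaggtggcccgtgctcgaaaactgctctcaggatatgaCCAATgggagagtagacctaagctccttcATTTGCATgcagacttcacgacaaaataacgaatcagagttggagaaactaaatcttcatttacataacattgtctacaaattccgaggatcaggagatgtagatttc
H2BC9 (chr6:26251364-26251613, plus strand): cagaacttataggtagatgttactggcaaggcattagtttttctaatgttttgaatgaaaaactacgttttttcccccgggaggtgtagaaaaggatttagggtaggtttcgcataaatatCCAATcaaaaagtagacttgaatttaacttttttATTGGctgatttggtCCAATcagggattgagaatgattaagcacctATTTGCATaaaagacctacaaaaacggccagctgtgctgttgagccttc
H2BC12 (chr6:27146859-27147108, minus strand): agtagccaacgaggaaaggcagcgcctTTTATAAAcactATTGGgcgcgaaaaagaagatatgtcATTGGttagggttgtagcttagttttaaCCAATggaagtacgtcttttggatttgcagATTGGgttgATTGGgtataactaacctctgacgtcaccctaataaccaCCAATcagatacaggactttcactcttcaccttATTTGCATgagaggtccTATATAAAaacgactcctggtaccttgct
H2BC4 (chr6:26123927-26124176, minus strand): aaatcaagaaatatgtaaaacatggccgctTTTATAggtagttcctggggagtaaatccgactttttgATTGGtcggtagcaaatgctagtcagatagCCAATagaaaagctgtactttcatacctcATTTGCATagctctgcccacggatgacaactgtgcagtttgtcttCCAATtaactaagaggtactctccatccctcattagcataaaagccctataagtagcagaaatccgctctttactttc
H4C11 (chr6:27823842-27824091, plus strand): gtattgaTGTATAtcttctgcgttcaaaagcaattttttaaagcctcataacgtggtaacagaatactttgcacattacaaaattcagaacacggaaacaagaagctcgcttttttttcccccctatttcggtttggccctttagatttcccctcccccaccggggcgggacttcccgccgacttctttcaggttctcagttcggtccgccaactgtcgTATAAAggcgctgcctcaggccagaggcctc
The window of H2BC4 shares 245 of its 250 bases with that of H2AC6, which is transcribed the other way from the same stretch. A CCAAT box was found upstream of 36 of the 41 genes, against 33.0% of the 27305 genes in the promoter table, and a TATA box upstream of 35, against 18.3%. All 6 H1, 8 H2A, 13 H2B and 7 H3 genes had a CCAAT box, but only 2 of 7 H4 genes did, and H4C11 was not one of these 2. The octamer was found upstream of 6 of the 8 H2A and 10 of the 13 H2B genes and of no H1, H3 or H4 gene, against 1.66% of all genes. The H1 box was found upstream of all 6 H1 genes and of no other member, against 4.95% of all genes. H2BC5 had 4 CCAAT boxes and no octamer, and H2BC12 had 6 CCAAT boxes and 1 octamer. H2AC25 and H2AC14, whose windows are not printed, had 3 and 5 CCAAT boxes. H2AC14 also had 1 TATA box and 1 octamer, and H2AC25 had neither. H2AC14 was called up at 48 h, and H2AC25 was not (-0.04). Matching letters are a description of these windows and not evidence of binding.

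At 48 h of Aa, 7 of the 10 brighter probe sets rose and none fell, for H1-2, H2AC14, H2BC5 (both probe sets), H2BC6, H2BC9 and H2BC12. At the same threshold, a Benjamini-Hochberg adjusted p under 0.05 in limma over 19623 probe sets, 33.9% of all probe sets changed, 16.0% upward and 17.9% downward. With the replicate block 8 of the 10 were called, against 51.1% of all probe sets. The rises by probe set were 1 of 1 for H1, 1 of 3 for H2A, 5 of 5 for H2B and 0 of 1 for H4. Except for that of H2BC12, the H2B probe sets have names that mark probes shared with other sequences. Their rises may therefore not be separate. No H3 probe set reached a mean of 4. Of the 7 rises, 4 were by at least 2-fold, and the median log2 change of the 10 was 1.00, against -0.01 over all probe sets tested. These are bulk measurements, so more cells that express a gene and more RNA per cell cannot be told apart.

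At 24 h none of the 10 was called, by limma with the same adjustment, while 22.3% of all probe sets were, 10.9% upward and 11.4% downward. An unadjusted p under 0.05 was found for 4 of the 10. All 10 differences were above 0, with a median of 0.44 against -0.03 over all probe sets tested. The smallest were 0.09 for H2AC14 and 0.11 for H4C11. The 10 may not be separate readings, since 7 of them have names that mark probes shared with other sequences. In a fit that pairs the arrays of the same replicate number (the replicate block), 2 of the 10 were called at 24 h (H1-2 at adjusted p = 0.0288 and H2BC6 at 0.0406 in limma), against 39.7% of all probe sets. Without the arrays numbered 3, H2AC6 and H2BC12 were called instead (limma adjusted p = 0.0327 and 0.0229). Each time had its own control arrays.

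**Figure D1:**
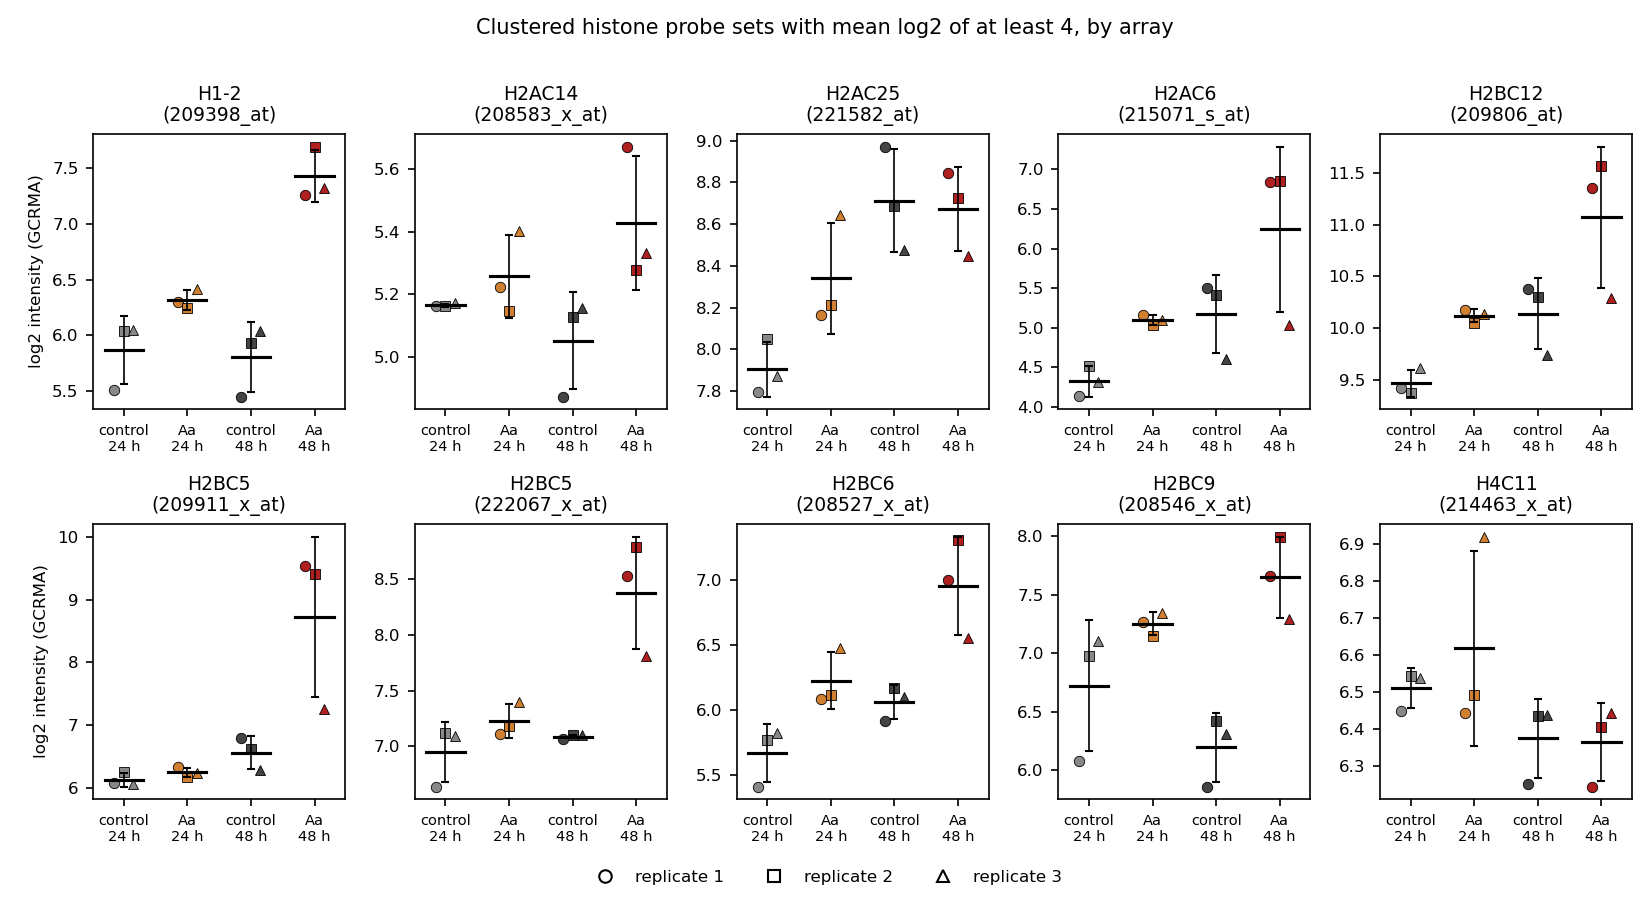
Log2 intensity (GCRMA) of the 10 clustered histone probe sets with a mean of at least 4, for each array in the 4 groups. Marker shapes give the replicate number, horizontal bars the group mean and error bars the SD (n = 3). Aa arrays at 48 h lie above all 48 h controls in 6 of the 10 panels. H2AC6, H2AC25, H2BC12 and H4C11 show no such gap.

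H1-2 is a linker histone and the only H1 gene above the threshold (probe set 209398_at). Its log2 intensities were 5.51, 6.04 and 6.05 in the 24 h controls and 6.30, 6.24 and 6.42 with Aa at 24 h. At 48 h they were 5.45, 5.93 and 6.04 in the controls and 7.26, 7.70 and 7.33 with Aa. The Aa arrays lay above the controls at both times, and all 3 arrays with Aa at 48 h lay above every other array. The rise at 48 h was 1.62 on the log2 scale (SE 0.19, 95% confidence interval 1.20 to 2.05), or 3.08-fold, with a limma adjusted p of 0.000193. The difference at 24 h was 0.45 (SE 0.19, adjusted p = 0.120).

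Among the H2A genes, which encode a core histone paired with H2B, H2AC6 (215071_s_at) was measured at 4.13, 4.52 and 4.32 in the 24 h controls and 5.16, 5.03 and 5.10 with Aa. The later arrays were at 5.50, 5.41 and 4.60 in the controls and 6.84, 6.85 and 5.03 with Aa. The groups were apart at 24 h and overlapped at 48 h, where the Aa array numbered 3 lay below 2 of the 3 controls. The differences were 0.78 at 24 h (SE 0.42, limma adjusted p = 0.220) and 1.07 at 48 h (SE 0.42, adjusted p = 0.0727), so neither was called. The 48 h difference was called with the replicate block (adjusted p = 0.0300 in limma), and without the Aa array numbered 3 it was 1.68 (adjusted p = 0.00128).

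H2AC14 (208583_x_at) was at 5.16, 5.16 and 5.17 in the 24 h controls and at 5.22, 5.15 and 5.40 with Aa. After 48 h the values were 4.87, 5.13 and 5.15 in the controls and at 5.67, 5.28 and 5.33 with Aa. Only the 48 h groups were apart. The rise at 48 h was the smallest of those called, 0.38 (SE 0.13, limma adjusted p = 0.0434), and leaving out any single 48 h array other than the Aa array numbered 2 ended that call. At 24 h the difference was 0.09 (SE 0.13, adjusted p = 0.660).

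H2AC25, from the small HIST3 cluster on chromosome 1 (221582_at), was at 7.79, 8.05 and 7.87 in the 24 h controls and at 8.16, 8.21 and 8.65 with Aa. At 48 h it was at 8.97, 8.69 and 8.48 in the controls and at 8.84, 8.73 and 8.45 with Aa. Its Aa arrays were above the controls at 24 h and mixed with them at 48 h. The differences were 0.44 (SE 0.17, limma adjusted p = 0.0940) and -0.04 (SE 0.17, adjusted p = 0.885, 95% confidence interval -0.42 to 0.34). A second H2AC25 probe set, 231681_x_at, had a mean of 2.32.

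All 5 brighter H2B probe sets rose at 48 h. H2BC5 was read by 2 probe sets, both of a kind whose name (_x_at) marks probes shared with other sequences. On 209911_x_at it was at 6.07, 6.25 and 6.06 in the 24 h controls, at 6.32, 6.17 and 6.23 with Aa at 24 h, at 6.79, 6.61 and 6.28 in the 48 h controls and at 9.53, 9.40 and 7.26 with Aa at 48 h. The 48 h Aa arrays were the highest of the 12, with the array numbered 3 more than 2 log2 units below the other 2. The rise was 2.17 (SE 0.47, 95% confidence interval 1.14 to 3.20), or 4.50-fold (limma adjusted p = 0.00528), the largest among the brighter members. At 24 h the difference was 0.12 (SE 0.47, adjusted p = 0.891).

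The second H2BC5 probe set, 222067_x_at, was at 6.64, 7.12 and 7.10 in the 24 h controls and 7.11, 7.18 and 7.40 with Aa. At 48 h it was at 7.07, 7.10 and 7.10 in the controls and 8.52, 8.79 and 7.81 with Aa. Both probe sets put the 48 h Aa arrays above all others and the array numbered 3 lowest among them. The rise here was smaller, at 1.28 (SE 0.22, 2.44-fold, limma adjusted p = 0.00157), and the 24 h difference was 0.28 (SE 0.22, adjusted p = 0.412).

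H2BC9 (208546_x_at), another H2B gene, was at 6.08, 6.97 and 7.11 in the 24 h controls and 7.27, 7.15 and 7.34 with Aa. Its 48 h values were 5.86, 6.42 and 6.31 in the controls and 7.66, 7.99 and 7.30 with Aa. The groups did not overlap at either time. The rise at 48 h was 1.45 (SE 0.27, 2.73-fold, limma adjusted p = 0.00228), and the difference at 24 h was 0.53 (SE 0.27, adjusted p = 0.185).

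H2BC6 (208527_x_at) was at 5.41, 5.77 and 5.83 in the 24 h controls and 6.09, 6.11 and 6.48 with Aa. At 48 h it was at 5.92, 6.17 and 6.10 in the controls and 7.00, 7.30 and 6.55 with Aa. Here too the groups were apart at both times. The rise at 48 h was 0.89 (SE 0.19, 1.85-fold, limma adjusted p = 0.00566), and the 24 h difference of 0.55 (SE 0.19) had an adjusted p of 0.0641 without the block.

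H2BC12 (209806_at) was the only H2B member above the threshold whose probe set name does not mark shared sequence. It was at 9.42, 9.37 and 9.61 in the 24 h controls and 10.18, 10.05 and 10.14 with Aa, and at 10.38, 10.30 and 9.74 in the 48 h controls and 11.35, 11.57 and 10.29 with Aa. The groups were apart at 24 h and overlapped at 48 h, because the Aa array numbered 3 lay below 2 of the controls. The rise at 48 h was 0.93 (SE 0.28, 1.90-fold, limma adjusted p = 0.0284). It was not called without the Aa array numbered 1 (0.79, adjusted p = 0.103) or 2 (0.68, 0.0896) or the control array numbered 3 (0.73, 0.0970). The 24 h difference was 0.65 (SE 0.28, adjusted p = 0.129).

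H4C11, the only H4 gene above the threshold (214463_x_at), was at 6.45, 6.54 and 6.54 in the 24 h controls and 6.44, 6.49 and 6.92 with Aa. The 48 h values were 6.25, 6.44 and 6.44 in the controls and 6.24, 6.41 and 6.44 with Aa. The groups overlapped at both times. The differences were 0.11 at 24 h (SE 0.13, limma adjusted p = 0.613) and -0.01 at 48 h (SE 0.13, adjusted p = 0.959), with a 95% confidence interval of -0.30 to 0.28 at 48 h.

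All 3 Aa arrays lay above all 3 controls for 6 of the 10 probe sets at 24 h and for 6 at 48 h, and in no case below. Over all probe sets tested the groups were apart for 40.0% at 24 h, 18.2% upward, and for 45.5% at 48 h, 21.9% upward. The members were H1-2, H2BC6 and H2BC9 at both times, H2AC6, H2AC25 and H2BC12 at 24 h only, and H2AC14 and both H2BC5 probe sets at 48 h only.

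Arrays of the same number deviated together, so differences were also taken within each number. At 48 h the median difference of the 10 probe sets was 1.22, 1.35 and 0.50 in the pairs numbered 1, 2 and 3, against -0.02, -0.01 and 0.00 over all probe sets tested. For the 7 called members it was 1.45, 1.57 and 0.71, and the pair numbered 3 gave the smallest difference for 6 of the 7. Over the 3143 probe sets called up at 48 h the same medians were 0.81, 0.69 and 0.80, so that pair was not the lowest there. At 24 h the 10 probe sets had medians of 0.57, 0.17 and 0.38. Whether the pairs truly differ was not tested, since each is 1 array against 1.

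**Figure D2:**
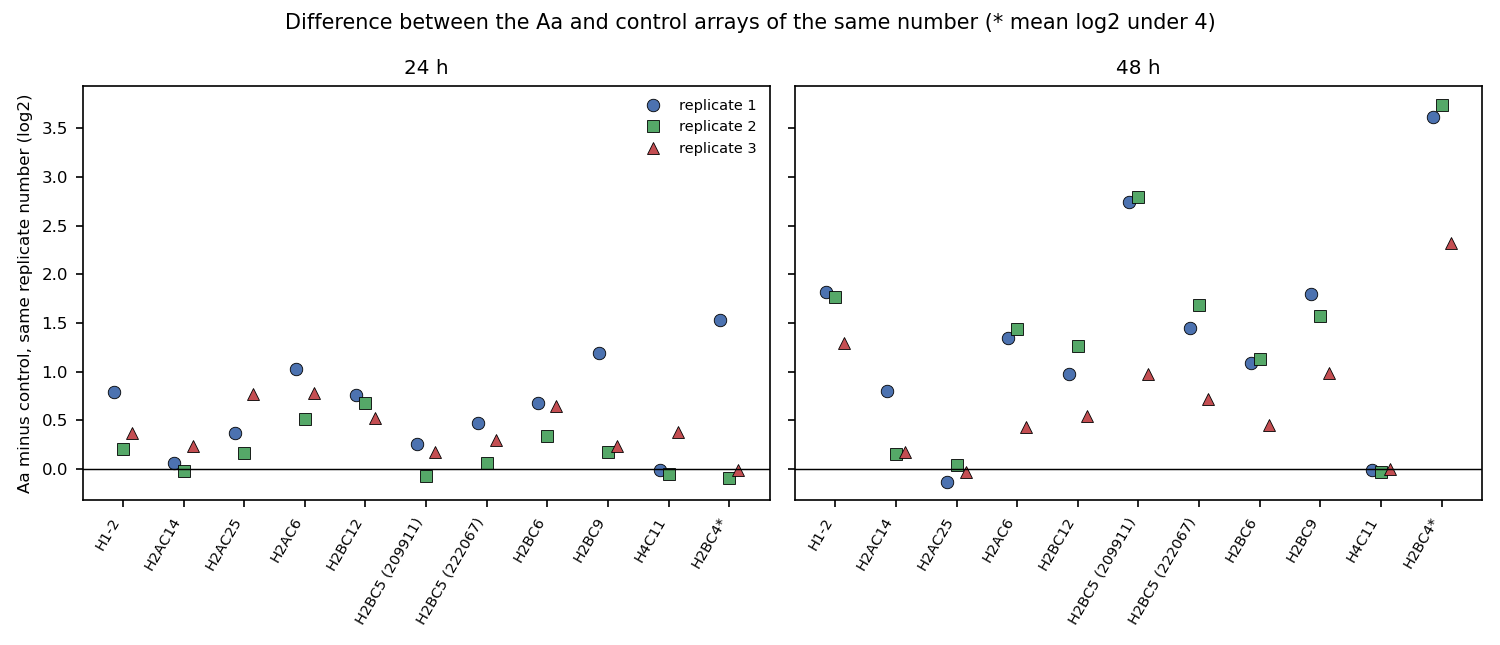
Difference in log2 intensity between the Aa and the control array of the same replicate number, at 24 h (left) and 48 h (right), for the 10 brighter probe sets and H2BC4 (*, mean below 4). At 48 h the pair numbered 3 (triangles) gave the smallest difference for 6 of the 7 called members, and H4C11 stayed near 0 in every pair.

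The count at 48 h depended on single replicates. It was 2 without the arrays numbered 1 (H1-2 and H2BC9), 3 without those numbered 2 and 7 without those numbered 3, where H2AC6 was gained and H2AC14 lost. The calls among all probe sets fell too, from 6652 to 2432, 5447 and 3651 in the same order. H1-2 and H2BC9 passed the threshold under every alternative tried for them. Only 3 of the 10 probe sets have names without a mark of shared sequence, and 2 of these 3 were called, H1-2 and H2BC12.

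The effect of Aa was not shown to differ between 24 h and 48 h for any of the 10 probe sets. The interaction in limma called 0 of 10, against 0.392% of all probe sets, with 4 at an unadjusted p under 0.05. Those 4 were H1-2, whose effect was larger at 48 h by 1.17 (SE 0.27, adjusted p = 0.115), both H2BC5 probe sets by 2.05 (adjusted p = 0.238) and 1.01 (adjusted p = 0.220), and H2BC9 by 0.92 (adjusted p = 0.333). With the replicate block H1-2 alone was called (limma adjusted p = 0.0142), against 8.43% of all probe sets. Without the 48 h Aa array numbered 3, the H2BC5 interaction on 209911_x_at was 2.79 (adjusted p = 0.00201).

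In control cells none of the 10 changed between 24 h and 48 h in limma, against 0.117% of all probe sets, with 2 at an unadjusted p under 0.05. These were H2AC25, higher at 48 h by 0.81 (SE 0.17, adjusted p = 0.0911), and H2BC12, higher by 0.67 (SE 0.28, adjusted p = 0.304). With the replicate block H2AC25 was called (limma adjusted p = 0.0203), against 14.5% of all probe sets. Without the 48 h control array numbered 3 its difference was 0.92 (adjusted p = 0.0367).

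Below the threshold lay 41 probe sets, among them all 9 for H3. Of these, 39 had no array at 4 or above and means from 1.72 to 3.63. Nearest to the threshold were H2AC6 at 5.21 and H2AC14 at 5.23 on the inside and H2BC4 at 3.93 on the outside. All 10 members inside it had all 12 arrays at 4 or above, so none passed through 1 group alone. In a limma fit without the filter, over 41091 probe sets, 2 of the 41 rose at 48 h and none fell, with 3 at an unadjusted p under 0.05, against 13.7% of all probe sets called in that fit. At 24 h the fit called none of the 41, against 8.64% of all probe sets, and none had an unadjusted p under 0.05. The difference lay within 0.15 of 0 for 39 of the 41 at 24 h and 37 at 48 h. At such low values GCRMA compresses differences, so a change there is not measured well.

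**Figure D3:**
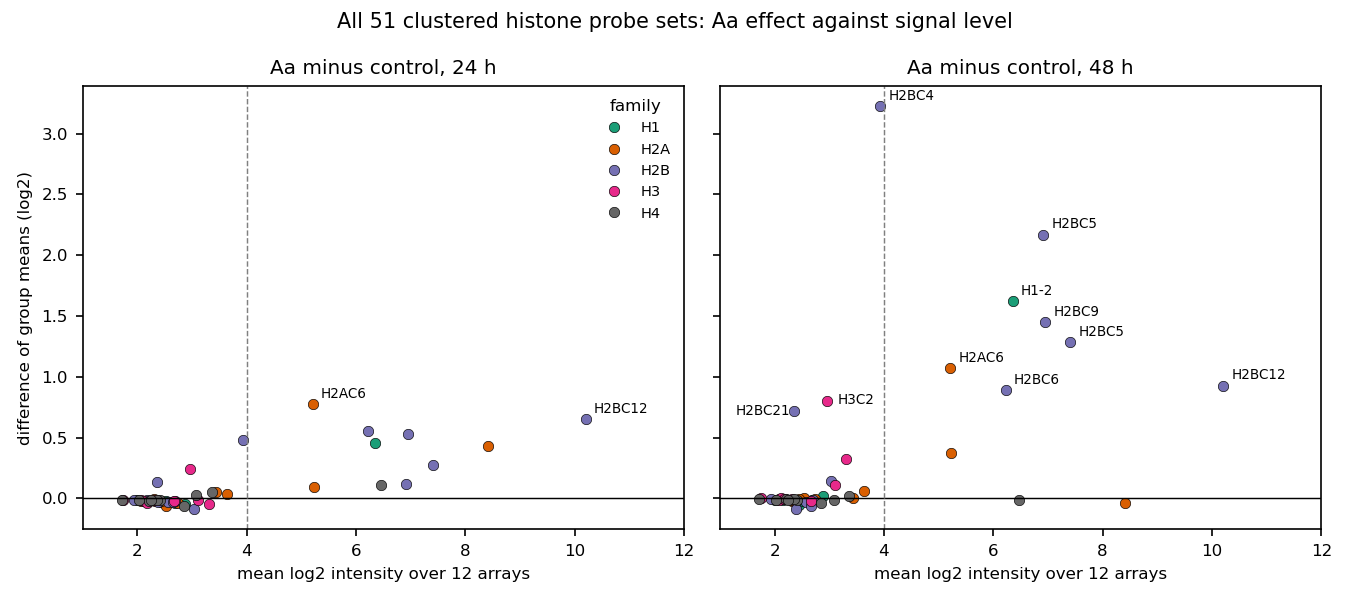
Difference of group means (Aa minus control, log2) against mean log2 intensity over 12 arrays for all 51 clustered histone probe sets, at 24 h (left) and 48 h (right), coloured by family. The dashed line marks a mean of 4. Of the 41 points left of it, 39 lie within 0.15 of 0 at 24 h and 37 at 48 h, and H2BC4 is the highest at 3.23 in the 48 h panel.

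H2BC4 (236193_at), the gene that shares its upstream stretch with H2AC6, was at 2.98, 3.05 and 3.15 in the 24 h controls and 4.51, 2.96 and 3.14 with Aa at 24 h. At 48 h it was at 3.05, 3.00 and 2.81 in the controls and 6.67, 6.73 and 5.13 with Aa. Of the 24 h arrays 1 with Aa stood above the rest, and at 48 h all 3 Aa arrays stood above every other array. The rise at 48 h was 3.23 (SE 0.48, limma adjusted p = 0.00289 without the filter), and since its controls lie at the low end of the scale the size is poorly fixed. The adjusted p was above 0.05 when the arrays numbered 1 or 2 were left out, with 0.0569 the highest.

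H3C2 (208576_s_at), which encodes H3, was at 2.55, 2.67 and 2.71 in the 48 h controls and 2.96, 3.79 and 3.58 with Aa. These groups were apart although every array stayed below 4. The rise was 0.80 (SE 0.19, limma adjusted p = 0.0240 without the filter), and it was lost in 8 of 14 alternatives, with adjusted p-values from 0.00266 to 0.245. H2BC21, from the HIST2 cluster (202708_s_at), was at 2.15, 2.13 and 2.15 in the 48 h controls and 3.38, 3.06 and 2.15 with Aa, a difference of 0.72 (SE 0.26, adjusted p = 0.119). The next smallest p-values belonged to H2BC11 (0.14, adjusted p = 0.268), H2BC14 (-0.09, 0.362) and H1-4 (-0.05, 0.415). An H3C6 probe set, 236278_at, reached 4 on 2 arrays, both with Aa at 48 h, at 4.04 and 4.06, and its difference there was 0.33 (SE 0.25, adjusted p = 0.568).

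Another 20 probe sets are annotated to several clustered histone genes each and name no single one, so they are no members, and 6 of them had a mean of at least 4. In a limma fit over all 22515 probe sets past the filter, 4 of the 6 rose at 48 h and none fell, against 33.2% called in that fit. Among these 4 is 210387_at, which passed the filter only through its Aa arrays at 48 h. At 24 h 1 rose, against 22.6%, and the interaction called 2, against 0.373%. None changed in the controls over time, against 0.129%, also at an unadjusted p under 0.05.

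Probe set 214290_s_at, assigned to 2 H2A genes, was at 7.34, 8.26 and 7.97 in the 24 h controls and 8.90, 8.92 and 8.99 with Aa at 24 h, and at 7.97, 8.38 and 8.06 in the 48 h controls and 11.33, 11.56 and 10.72 with Aa at 48 h. The Aa arrays were above the controls at both times. It rose by 1.08 at 24 h (SE 0.25, limma adjusted p = 0.0109) and by 3.06 at 48 h (SE 0.25, 8.36-fold, adjusted p = 2.26e-05). The 24 h call was lost without the arrays numbered 1 (0.84) or 3 (1.11). Probe set 218280_x_at, also of 2 H2A genes, was at 7.59, 7.70 and 8.06 in the 48 h controls and 10.22, 10.99 and 9.89 with Aa. It rose by 2.58 at 48 h (SE 0.24, 6.00-fold, adjusted p = 4.27e-05), with a 24 h difference of 0.48 (SE 0.24, adjusted p = 0.186).

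Among the H2B sets, 210387_at (2 genes) was at 3.72, 3.68 and 3.02 in the 48 h controls and 4.94, 6.28 and 4.46 with Aa, a rise of 1.76 (SE 0.50, limma adjusted p = 0.0209). Its group means were 3.85 and 3.47 in the 24 h and 48 h controls, 3.49 with Aa at 24 h and 5.23 with Aa at 48 h. It thus passed the filter only through the group in which it was high, which limits this call. The 24 h control array numbered 3, at 4.91, lay above the 48 h Aa array of that number. The set 208490_x_at (5 genes) rose by 0.83 (SE 0.26, adjusted p = 0.0297), with overlapping groups. Leaving out single arrays or replicate numbers ended the call for 210387_at in 4 cases and for 208490_x_at in 6. Both sets of 14 H4 genes moved little. The brighter, 205967_at, differed by 0.19 at 24 h (SE 0.15, adjusted p = 0.409) and -0.11 at 48 h (SE 0.15, adjusted p = 0.624), and 208580_x_at by 0.10 (SE 0.10, 0.518) and 0.04 (SE 0.10, 0.811).

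**Figure D4:**
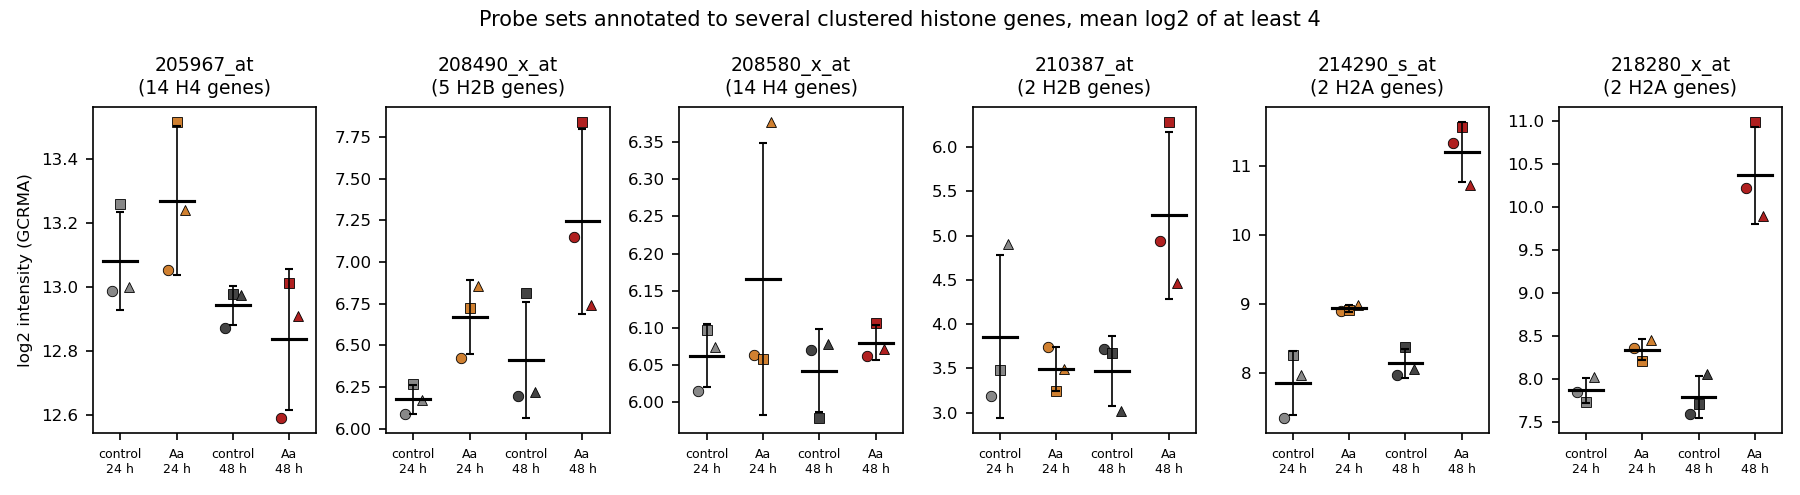
Log2 intensity (GCRMA) of the 6 probe sets annotated to several clustered histone genes with a mean of at least 4, by array and group, with group mean and SD (n = 3), marker shapes for replicate numbers 1 (circle), 2 (square) and 3 (triangle). The 3 Aa arrays at 48 h stand above all other arrays on both H2A panels, and both H4 panels show overlapping groups.

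Probe sets for ribosomal RNA, which like most clustered histone messages has no poly(A) tail, also differed between the groups. The 28S 3′ set did not, but it lay at the low end of the scale. The 28S middle probe set was at 9.29 ± 0.34 (SD, n = 3) in the 24 h controls and 10.96 ± 0.26 with Aa, and at 9.51 ± 0.54 and 11.03 ± 0.76 at 48 h, a difference of 1.67 and 1.52 with Aa higher in 3 of 3 pairs each time. The 28S 5′ probe set differed by 1.06 and 0.92, and those for 18S by 0.45 to 0.86 at 24 h and 0.32 to 0.43 at 48 h. All 3 of the 18S probe sets were higher with Aa in 3 of 3 pairs at 24 h, and at 48 h this held in 1, 3 and 2 of 3 pairs for the 5′, middle and 3′ sets. The 28S 3′ probe set had group means of 1.62 to 1.63, and the lowest value of the series was 0.82. A change at that level is not measured well. This set differed by -0.0083 at 24 h and -0.0054 at 48 h, with Aa higher in 1 of 3 pairs each time. The priming step of the labelling is not given in the sources used here, and the part of this in the histone changes was not tested.

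Of the renal epithelial marker genes, 5 of 12 had a mean of at least 4 (PAX8, CDH6, SLC3A1, KRT8 and KRT18), and the proximal tubule genes LRP2, CUBN and AQP1 were among those below it. The summed log2 level of all 12 ran from 75.6 to 76.8 over the controls and from 71.7 to 74.6 over the Aa arrays. The genes in this sum did not all move one way. On the summed probe sets, the brightest of each gene, the means of all 5 brighter genes were lower with Aa at 24 h. At 48 h those of PAX8, CDH6 and SLC3A1 were lower, with SLC3A1 at 9.57 in the controls and 7.70 with Aa. Those of KRT8 (11.78 and 12.28) and KRT18 (12.77 and 13.12) were higher with Aa at 48 h. Other probe sets of these 5 genes did not all go the same way. Of their 17 probe sets past the filter, limma called 2 up and 1 down at 24 h, and 1 up and 10 down at 48 h. These are 17.6% and 64.7%, against 22.3% and 33.9% of all probe sets. With the block 3 rose and 8 fell at 24 h, and 3 rose and 12 fell at 48 h, against 39.7% and 51.1% of all probe sets called. Of 4 fibroblast markers, COL1A1, DCN and LUM were above 4 and PDGFRB was below, with a summed level of 31.7 to 33.7 in the controls and 30.8 to 32.3 with Aa. At 48 h the mean of COL1A1 was higher with Aa, and those of DCN and LUM were lower. All 4 endothelial and 3 leukocyte markers were below 4 on average. The part of these shifts in the histone results was not tested.

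Histone genes outside the replication-dependent clusters, which supply variant histones, were read by 20 probe sets for 9 of 12 listed genes. At 48 h 8 rose and 1 fell, with a median of 0.29, and at 24 h 2 rose and 1 fell, with a median of 0.03. The share called was 45.0% at 48 h and 15% at 24 h, against 33.9% and 22.3% of all probe sets. H2AZ2 (212206_s_at), a variant of H2A found at promoters, rose by 0.67 at 24 h (SE 0.10, limma adjusted p = 0.00108) and 0.96 at 48 h (SE 0.10, adjusted p = 9.36e-05). Its probe set 212205_at rose as well, by 0.55 and 0.67. On 202487_s_at it differed by -0.27 and -0.19, the former called with the block (adjusted p = 0.0351), and on 227085_at by -0.08 and 0.26, the latter called with the block (adjusted p = 0.0284). H2AX (205436_s_at), the variant phosphorylated at DNA breaks, rose by 1.72 at 48 h (SE 0.31, adjusted p = 0.00200), and its probe set 213344_s_at by 0.73 (adjusted p = 0.00459). MACROH2A1 (214500_at) fell by 0.60 at 24 h (adjusted p = 0.0124), and CENPA, the centromeric H3, differed by -0.41 at 24 h (adjusted p = 0.0688) and rose by 0.63 at 48 h (adjusted p = 0.00845) on 210821_x_at. With the block the calls at 24 h were 3 up and 6 down, and at 48 h 12 and 2, against 39.7% and 51.1% of all probe sets called. Leaving out replicates or single arrays gave between 3 and 8 rises at 48 h.

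Genes listed for the production and processing of histone messages were read by 54 probe sets for 25 of 26 listed genes. The list is broad and also holds the cell cycle and signalling genes CCNE1, CCNE2, CDK2, CDC25A and ATM. At 24 h 16 rose and 4 fell (median 0.18), and at 48 h 17 rose and 5 fell (median 0.25). These are 37.0% and 40.7% of the list, against 22.3% and 33.9% of all probe sets. With the block these counts were 21 and 7 at 24 h and 25 and 7 at 48 h, against 39.7% and 51.1% of all probe sets called. CDC25A, a phosphatase that drives entry into S phase, rose on 204695_at by 1.41 at 24 h (SE 0.17, limma adjusted p = 0.000324) and 1.67 at 48 h (SE 0.17, adjusted p = 8.57e-05), and on 204696_s_at by 2.71 at 48 h (SE 0.35, adjusted p = 0.000303). YY1, a transcription factor, rose by 0.82 at 24 h on 224718_at (adjusted p = 0.000928). Its probe set 200047_s_at differed by -0.11 at 24 h and fell by 0.26 at 48 h (adjusted p = 0.0482), so the YY1 probe sets did not move one way. TUT7, which adds uridines to RNA ends, rose by 0.72 at 24 h on 220933_s_at (adjusted p = 0.00149). ZNF473, the zinc finger protein of histone message 3′ processing, rose by 1.04 and 1.29 (adjusted p = 0.00159 and 0.000333), while NCBP2, a subunit of the cap-binding complex, fell by 1.31 at 48 h (SE 0.16, adjusted p = 0.000264). SLBP, the stem-loop binding protein, differed by 0.27 at 24 h and 0.08 at 48 h (adjusted p = 0.157 and 0.651). NPAT, the coactivator of the clustered histone genes, rose by 0.35 at 24 h (adjusted p = 0.0345) and fell by 0.38 at 48 h (adjusted p = 0.0181) on 209798_at, with differences of -0.01 and -0.04 on 211584_s_at. SLBP and NPAT were named for their roles after their values were seen. Leaving out arrays gave between 4 and 15 rises at 24 h.

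Histone chaperones, which carry and deposit histones, were read by 52 probe sets for 22 genes. At 24 h 9 rose and 2 fell (median 0.07), and at 48 h 13 rose and 3 fell (median 0.00). The shares called, 21.2% and 30.8%, were near those of all probe sets, 22.3% and 33.9%. With the block 16 rose and 3 fell at 24 h, and 18 rose and 8 fell at 48 h, against 39.7% and 51.1% of all probe sets called. RBBP4, a histone-binding subunit of several chromatin complexes, was split: 225396_at, 244872_at and 237333_at rose by 2.84, 2.74 and 2.36 at 24 h and by 2.31, 2.22 and 1.97 at 48 h, whereas 210371_s_at fell by 0.46 at 24 h (limma adjusted p = 0.0118). HJURP, the chaperone of CENPA, rose by 1.30 at 48 h (SE 0.15, adjusted p = 0.000193). Leaving out arrays gave 3 to 13 rises at 24 h and 6 to 12 rises at 48 h. The interaction called no probe set of the 3 lists in limma without the block, with 5, 8 and 5 at an unadjusted p under 0.05. With the block it called 4, 8 and 5 probe sets in either direction, in the order of these paragraphs, against 8.43% of all probe sets.

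**Figure D5:**
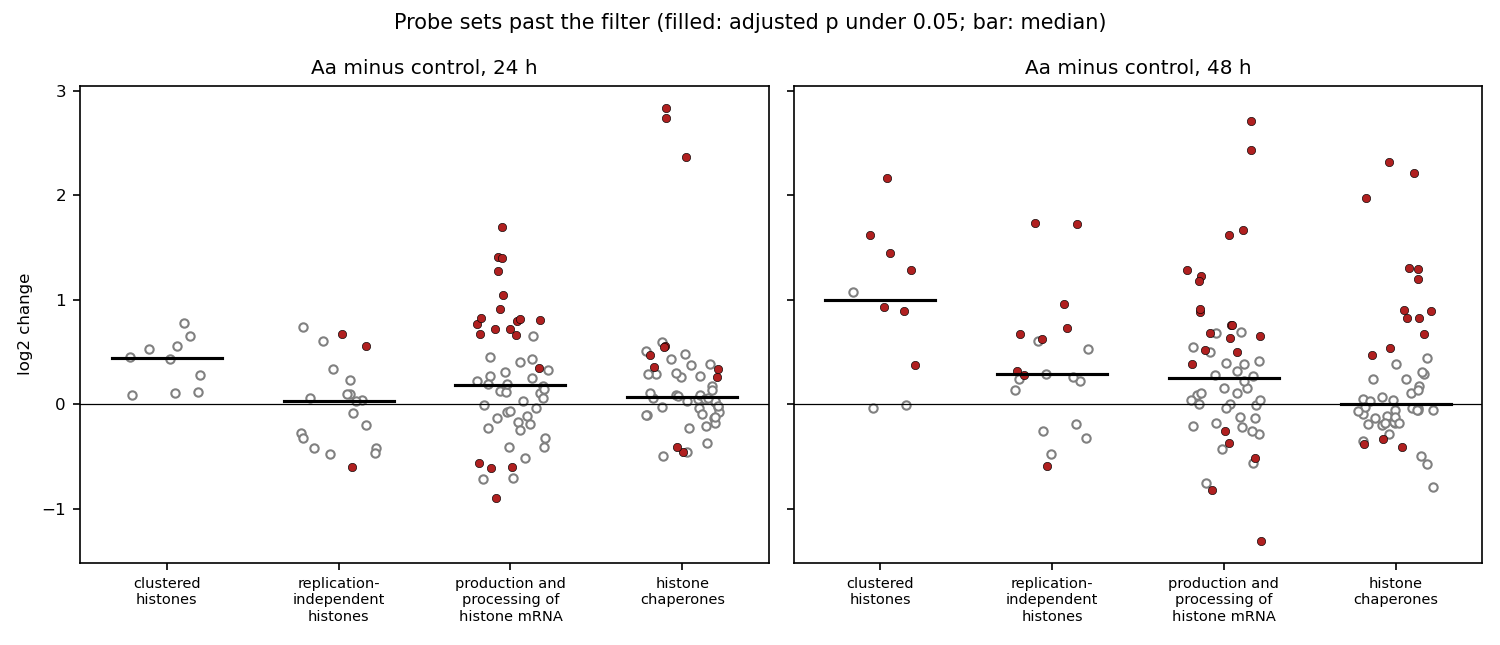
Log2 change (Aa minus control) of probe sets past the filter at 24 h (left) and 48 h (right), for the 10 clustered histone probe sets and 3 related gene lists. Filled points had an adjusted p under 0.05, and bars mark medians. The median of the clustered histones was 0.44 at 24 h and 1.00 at 48 h, and the highest points at 24 h are the 3 RBBP4 probe sets.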

How the data were processed

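RNA of 12 HK-2 samples (4 groups of 3) was hybridised to Affymetrix whole-genome arrays after standard biotin labelling, per the labels' protocols. The deposited values are log2 intensities made by the authors with GCRMA, per the submitters' processing notes, whose version is not given in the sources used here. Array medians lay between 2.93 and 3.01, and 12 arrays limit the precision. Gene names came from the array annotation, updated through RefSeq.

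Group means were fitted with limma (version 3.58.1, R 4.3.3, lmFit and eBayes) to 19623 probe sets with 1 gene symbol, no control and a mean log2 of at least 4. The fit was tested on simulated data in which arrays varied independently. That test does not cover the deviations shared within replicate numbers that are described below. Calls needed a Benjamini-Hochberg adjusted p under 0.05, and SE is limma's. Samples sharing a replicate number correlated in their deviations from group means (r 0.37 to 0.60 over 18 pairs, other pairs -0.49 to -0.03), so the numbers pair the samples, and results of the paired fit stand beside calls they alter. Nothing in the labels says how the cultures were separated, so the p-values describe sample-to-sample spread that may be technical.

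The members and lists were chosen with earlier results of these data known. Every member with a mean of at least 4 is reported, and of other lists up to 4 probe sets per time with the smallest p. Alternatives covered filters, normalization, moderation, the groups fitted, the block and left-out arrays. Those for H2BC4, H3C2, the probe sets of several genes and the list counts were added after seeing the data.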

Additional observations from a re-analysis of the deposited data

Results flagged for a closer look

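Both H2A probe sets that are annotated to 2 clustered genes each had an Aa effect that differed between the times by the interaction test. On 214290_s_at the effect was larger at 48 h than at 24 h by 1.99 on the log2 scale (SE 0.35, limma adjusted p = 0.0478). On 218280_x_at it was larger by 2.11 (SE 0.34, limma adjusted p = 0.0380). Neither stands firmly past the threshold: of 20 alternatives the call was lost in 17 for the former and in 13 for the latter, mostly when a single array was left out, with adjusted p-values up to 0.568 and 0.585. The direction was the same in all 20 for both. None of the 10 members had a called interaction in the unblocked fit.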

How the results depend on the processing

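The count of called members at 24 h, 0, became 2 when only the 24 h groups were fitted (H2AC6 and H2BC12) and 2 with the replicate block, and ran from 0 to 2 when replicates or single arrays were left out. At 48 h the 7 calls became 2 of 3 without probe sets marked as sharing sequence, since fewer were tested, ran from 2 to 7 with arrays left out and from 5 to 8 otherwise. The interaction and the control comparison, 0 each, became 1 each with the replicate block and ran from 0 to 1 with arrays left out. Which feature of these fits moved each count was not tested. Among the 48 h calls, H2AC14 was lost in 12 of 20 alternatives and H2BC12 in 8 of 21, and H1-2 and H2BC9 in none. Without the filter H2AC14 and H2BC12 gave way to H2BC4 and H3C2.

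The replicate block changed no member's call beyond those named in the report. Directions turned only for differences that were not called. Centring on array medians moved H4C11 at 48 h to 0.00020. With arrays left out, the lowest and highest values were, at 24 h, -0.044 and 0.20 for H4C11, -0.050 and 0.76 for H2BC4, -0.0021 and 0.18 for 208580_x_at, and -0.83 and 0.16 for 210387_at. At 48 h they were -0.072 and 0.049 for H4C11, -0.16 and 0.090 for H2AC25, -0.19 and 0.018 for 205967_at, and -0.0074 and 0.061 for 208580_x_at. For the interaction they were -0.21 and 0.033 for H4C11, -0.020 and 0.90 for H2AC6, and -0.18 and 0.056 for 208580_x_at, and for the controls over time -0.24 and 0.12 for H1-2 and -0.018 and 0.22 for H2BC5 (222067_x_at). The cause was not tested. Few arrays, shared probes and low signal limit these results: 41 of 51 members lie below a mean of 4.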

Other observations

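H2BC12L, an H2B gene outside the clusters that carries no former cluster name, was read by 1 probe set (208579_x_at) and is no member. It differed by 0.60 at 24 h (SE 0.28, limma adjusted p = 0.155) and rose by 0.96 at 48 h (SE 0.28, adjusted p = 0.0229).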
